A study of Mus musculus with 2 samples.

Results

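The genes followed here are 10 of the 32285 genes in the count tables of a mouse skin tumour study. They comprise 3 receptors of the Notch pathway (Notch1, Notch2 and Notch3), 4 ligands (Jag1, Jag2, Dll1 and Dll4) and 3 target genes (Hes1, Hey1 and Heyl). Each was chosen by its symbol, which was carried by 1 gene ID, and none was chosen by a threshold on its level. Their levels were taken in basal, suprabasal and cornifying keratinocytes, pericytes and endothelium.

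Cells of whole squamous tumours from dorsal skin were profiled by droplet-based sequencing of the 3′ ends of transcripts, with 1 library per group. Eed iKO-D mice carried K14CrERT2 and Eed flox/flox and received hydroxyl-tamoxifen and DMBA. Ctrl-D mice carried Eed flox/flox with no Cre in the genotype label and received ethanol and DMBA. In both groups DMBA, a chemical carcinogen, was painted on the shaved back weekly for up to 20 weeks, and tumours were taken at 5 months of age. Tamoxifen treatment began at postnatal day 50 and lasted 4 days. The keratin 14 promoter drives Cre in basal keratinocytes of stratified epithelia, so the deletion of Eed, a core subunit of the gene-silencing complex PRC2, was aimed at keratinocytes and not at pericytes or endothelium. Cre, tamoxifen and library differed together, and their parts cannot be told apart. The labels do not give the number of mice or tumours behind a library. Each library held cells with UMIs (molecular barcodes that count each captured transcript once) of Xist alone and cells with UMIs of Y-linked genes alone, so both sexes were pooled in each.

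Notch receptors are cell surface proteins that are cut when a ligand on a neighbouring cell binds them. The protease ADAM10 and then gamma-secretase release the receptor's intracellular domain, which enters the nucleus, joins the DNA-binding protein RBPJ and turns on genes of the Hes and Hey families. In epidermis the pathway is known for helping keratinocytes leave the basal layer and differentiate, and loss of Notch1 in mouse skin is known to favour tumours. In vessels, Dll4 and Notch1 set arterial and tip cell fates, and Notch3 maintains the mural cells that wrap the vessel.

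Promoter windows are shown for Notch3 and Dll4, members with a window whose levels separated the vessel classes widely. The RefSeq promoter table (GRCm38.p6, 250 bases before to 50 bases after each gene start) matched 7 of the 10 genes, and Hes1, Hey1 and Heyl are named only. The RBPJ motif GTGGGAA, searched on both strands, so also as TTCCCAC, was present in 6.38% of 32851 windows of this length. Its core TGGGAA, which every GTGGGAA contains, was present in 25.6%. Of the 7 genes with a window, 0 held either motif. The Notch3 window lies at chr17:32166841-32167140 on the minus strand, and the Dll4 window at chr2:119325534-119325833 on the plus strand. Hey2, a relative of Hey1 and Heyl that was picked for display after its values were seen, held GTGGGAA once on each strand at chr10:30842734-30843033 on the minus strand. Capitals mark these matches. A match describes the letters in a window and shows no binding.
Notch3: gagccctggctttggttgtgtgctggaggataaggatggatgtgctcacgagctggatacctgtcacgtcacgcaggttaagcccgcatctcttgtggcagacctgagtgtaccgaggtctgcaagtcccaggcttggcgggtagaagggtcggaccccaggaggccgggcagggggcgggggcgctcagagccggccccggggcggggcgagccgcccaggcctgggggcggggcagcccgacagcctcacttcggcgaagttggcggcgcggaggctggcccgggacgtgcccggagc
Dll4: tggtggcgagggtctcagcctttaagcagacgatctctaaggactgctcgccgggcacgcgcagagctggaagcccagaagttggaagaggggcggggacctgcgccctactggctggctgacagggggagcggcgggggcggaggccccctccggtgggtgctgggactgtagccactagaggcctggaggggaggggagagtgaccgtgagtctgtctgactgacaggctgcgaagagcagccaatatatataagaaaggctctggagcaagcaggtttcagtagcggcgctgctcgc
Hey2: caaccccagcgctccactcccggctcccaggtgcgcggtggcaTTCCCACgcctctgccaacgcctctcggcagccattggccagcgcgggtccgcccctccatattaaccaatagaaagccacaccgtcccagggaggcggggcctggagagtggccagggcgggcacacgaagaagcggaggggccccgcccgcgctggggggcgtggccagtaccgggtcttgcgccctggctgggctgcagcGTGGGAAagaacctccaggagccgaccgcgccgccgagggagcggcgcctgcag

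There were 22259 barcodes with 289511009 UMIs in Eed iKO-D and 8039 barcodes with 120500892 UMIs in Ctrl-D. After filtering, 21484 cells of Eed iKO-D and 7377 cells of Ctrl-D remained, at median depths of 3191 and 13023 UMIs. A set of 49 barcodes occurred in both libraries, and 39 of them were kept. Although the labels call the cells epidermal cancer cells, the libraries also held fibroblasts, vessel cells and immune cells. Cells were grouped by clustering both libraries together, without the Notch pathway genes, and clusters were named from marker genes, so that each name below means cells like that type. Unnamed clusters took 11358 cells of Eed iKO-D and 37 of Ctrl-D. Eed itself stood at 50.5 CPM (the gene's UMIs after each class was scaled to the same total) in Eed iKO-D basal cells and 58.9 CPM in Ctrl-D basal cells, and at 29.0 and 21.7 CPM in suprabasal cells. The labels do not say which exons were deleted, and 3′ UMIs can come from outside them, so these levels check little.

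Basal keratinocytes numbered 2071 in Eed iKO-D and 275 in Ctrl-D, suprabasal keratinocytes 476 and 92, and cornifying keratinocytes 106 and 921. Pericytes numbered 353 and 31, and endothelial cells 546 and 19, so calls between the libraries were counted in the 3 keratinocyte classes only. Summed class markers differed between the libraries. The 11 basal markers summed to 28116 CPM in Eed iKO-D and 26411 CPM in Ctrl-D basal cells. The 12 suprabasal markers summed to 24742 CPM in Eed iKO-D and 55904 CPM in Ctrl-D suprabasal cells, with Krt4 at 0 in Ctrl-D, and the 15 cornifying markers to 669 and 5417 CPM there. In cornifying cells the 15 cornifying markers summed to 2378 CPM in Eed iKO-D and 7542 CPM in Ctrl-D. The Ctrl-D suprabasal and cornifying cells thus carried more differentiation transcripts, whose part in the ratios below was not tested. All 14 pericyte markers and all 13 blood endothelial markers were detected in their class in both libraries. In endothelium the 10 epithelial markers summed to 5349 CPM in Eed iKO-D, with none at 0, and 244 CPM in Ctrl-D, with Trp63 at 0. Ranges in parentheses are exact 95% intervals for counting error alone. A single library stood for each group, so replicate error could not be estimated and no test was run.

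Among the receptors, each was highest in a different place (shown in the plot of levels by class). Notch1, the receptor best known from basal epidermis, stood in Eed iKO-D at 130.0 CPM (128 to 132) in basal cells, 87.1 CPM (83.0 to 91.3) in suprabasal cells, 83.5 CPM in cornifying cells, 70.4 CPM in pericytes and 139 CPM (131 to 148) in endothelium. In Ctrl-D it stood at 70.2 CPM (63.1 to 77.8) in basal cells, 17.8 CPM (13.2 to 23.4) in suprabasal cells, 66.6 CPM in cornifying cells, 84.0 CPM in pericytes and 117 CPM (73.2 to 177) in endothelium. Within Eed iKO-D the levels of endothelium and basal cells overlapped and lay above the rest, while in Ctrl-D all neighbours in the order overlapped except suprabasal cells, which were lowest. Suprabasal over basal, Notch1 stood at 0.670 (0.637 to 0.705) in Eed iKO-D and 0.253 (0.184 to 0.341) in Ctrl-D.

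Notch2, a receptor that is broadly expressed, was highest in suprabasal cells of both libraries among the 5 classes. Eed iKO-D had 52.0 CPM in basal, 207 CPM in suprabasal and 146 CPM in cornifying cells, 51.2 CPM in pericytes and 36.6 CPM in endothelium. Ctrl-D had 40.6 CPM in basal, 75.3 CPM in suprabasal and 58.4 CPM in cornifying cells, 51.4 CPM in pericytes and 5.31 CPM, from 1 UMI, in endothelium. The suprabasal level was 3.99 (3.83 to 4.15) times the basal level in Eed iKO-D and 1.85 (1.52 to 2.25) times in Ctrl-D. Outside these classes, neutrophils held 197 CPM in Eed iKO-D and 394 CPM in Ctrl-D, so the gene was not limited to skin epithelium.

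Notch3, the receptor of vascular mural cells, was highest in pericytes by a wide margin. It stood at 441 CPM (425 to 458) in Eed iKO-D pericytes and 518 CPM (426 to 624) in Ctrl-D pericytes. Keratinocytes came next, with 63.3 CPM in Eed iKO-D and 36.9 CPM in Ctrl-D suprabasal cells, 45.1 and 30.4 CPM in cornifying cells, and 12.6 and 9.33 CPM in basal cells. Classes thus ranked alike in both libraries, although suprabasal and cornifying cells overlapped in Ctrl-D. The suprabasal level was 5.01 (4.63 to 5.42) times the basal level in Eed iKO-D and 3.96 (2.79 to 5.69) times in Ctrl-D. Endothelium had 12.5 CPM in Eed iKO-D and 0 UMIs in Ctrl-D, where a floor of 3 UMIs corresponds to 15.9 CPM. UMIs of Notch3 were found in 90.1% of Eed iKO-D and 93.5% of Ctrl-D pericytes. In T cells, which should lack the gene, they were found in 3.29% and 0.637%, at medians of 6335.5 and 3002 UMIs per cell against 16138 and 6032 in pericytes. After every cell was thinned to 1500 UMIs, the shares were 41.9% and 56.7% of pericytes and 0% and 0.229% of T cells.

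**Figure D1:**
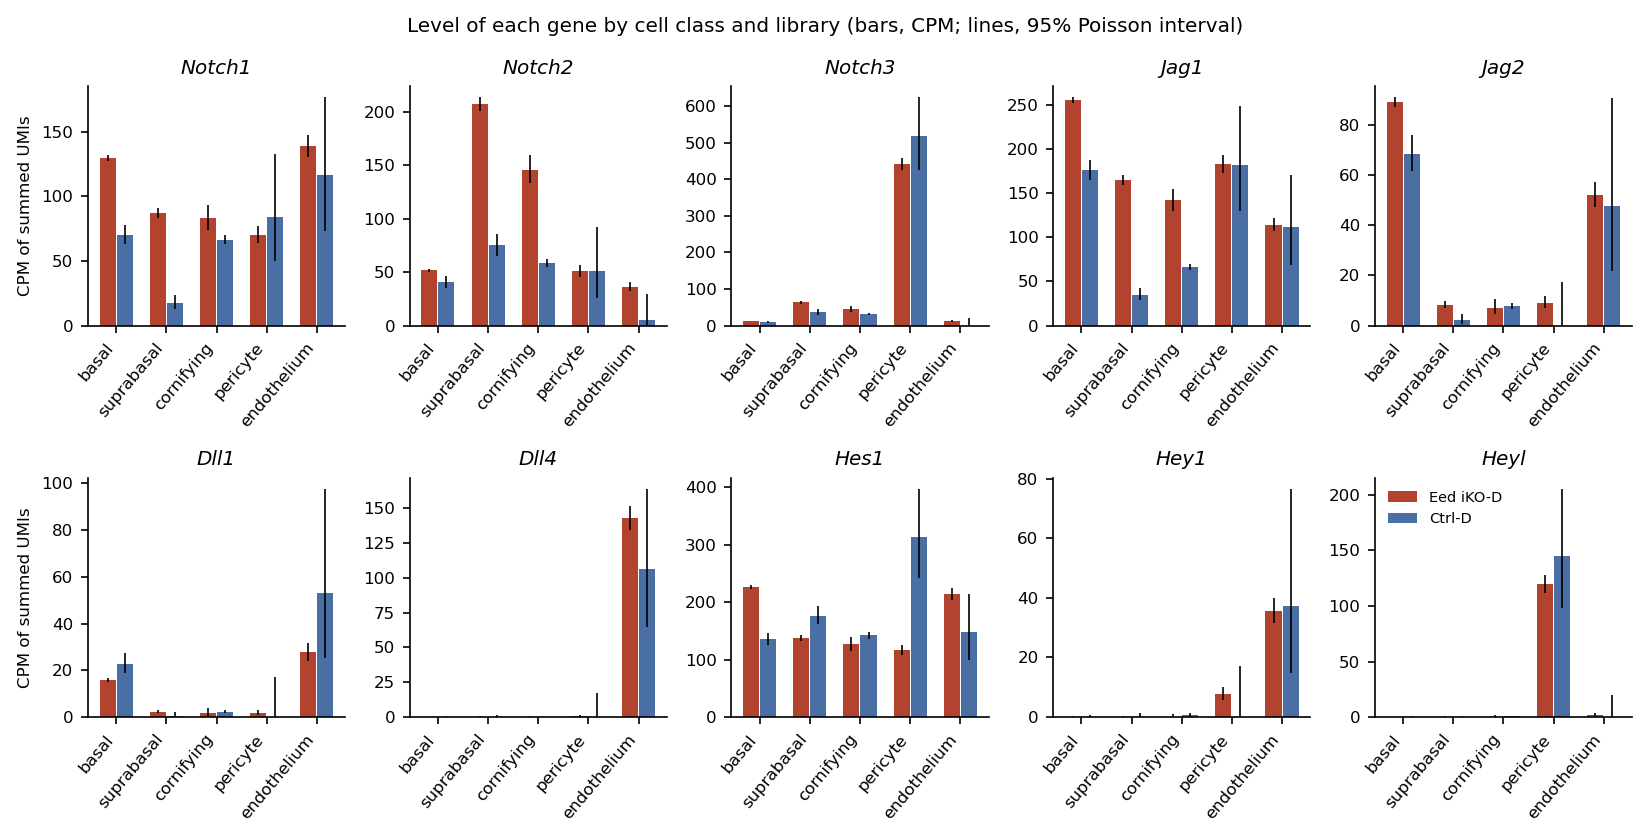
Level of each of the 10 genes in CPM of summed UMIs (vertical axes, linear from 0) by cell class, with Eed iKO-D bars on the left and Ctrl-D bars on the right of each pair and lines for the 95% Poisson interval. Notch3 and Heyl peak in pericytes (Notch3 at 441 CPM in Eed iKO-D and 518 CPM in Ctrl-D) and Dll4 and Hey1 in endothelium, while Notch2 peaks in suprabasal keratinocytes. Each bar is 1 library, and wide lines mark classes with few cells.

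Ligands were high in basal cells, vessel cells or both. Jag1, a ligand of epidermis and vessels, stood in Eed iKO-D at 256 CPM (253 to 259) in basal cells, 165 CPM in suprabasal cells, 142 CPM in cornifying cells, 183 CPM in pericytes and 115 CPM in endothelium. Ctrl-D had 176 CPM (165 to 188) in basal cells, 35.2 CPM in suprabasal cells, 66.3 CPM in cornifying cells, 182 CPM in pericytes and 111 CPM in endothelium. Basal cells were thus the highest class in Eed iKO-D, while basal cells, pericytes and endothelium overlapped in Ctrl-D. Suprabasal Jag1 was 0.647 of the basal level in Eed iKO-D and 0.200 in Ctrl-D.

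Jag2, the second Jagged ligand, was highest in basal cells and endothelium among the 5 classes in both libraries. Follicle-like keratinocytes, outside these classes, held 104 CPM in Eed iKO-D and 58.8 CPM in Ctrl-D. The basal level of Jag2 was 89.1 CPM in Eed iKO-D and 68.5 CPM in Ctrl-D. Its endothelial level was 52.0 and 47.8 CPM, the last from 9 UMIs. Suprabasal cells held 8.24 CPM in Eed iKO-D and 2.13 CPM in Ctrl-D, which was 0.0925 and 0.0311 of the basal level. Cornifying cells had 7.18 and 7.61 CPM, and pericytes 8.99 CPM and 0 UMIs. The steep step between basal and suprabasal cells was therefore present in both libraries.

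Dll1, a ligand that in mouse epidermis is associated with stem cell clusters, had the same outline at a lower count. Endothelium held 27.7 CPM (24.1 to 31.7) in Eed iKO-D and 53.1 CPM (25.4 to 97.6) in Ctrl-D, and basal cells 15.9 CPM (15.1 to 16.7) and 22.8 CPM (18.8 to 27.3). Suprabasal cells had 43 UMIs (2.17 CPM) in Eed iKO-D and 1 UMI (0.355 CPM) in Ctrl-D. Cornifying cells had 1.72 and 2.29 CPM. Suprabasal levels were 0.137 of the basal level in Eed iKO-D and 0.0156 in Ctrl-D.

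Dll4, the ligand of arterial and sprouting endothelium, was detected almost only in endothelium among the 5 classes. It stood there at 143 CPM (135 to 152) in Eed iKO-D and 106 CPM (64.8 to 164) in Ctrl-D, with 1109 and 20 UMIs. Basal cells had 10 UMIs in Eed iKO-D (0.0993 CPM) and 0 in Ctrl-D, suprabasal cells 3 and 0, cornifying cells 0 and 0, and pericytes 3 and 0. Endothelium over pericytes, the ratio within Eed iKO-D was 312 (107 to 1517). UMIs of Dll4 were found in 37.9% of Eed iKO-D and 36.8% of Ctrl-D endothelial cells. In Eed iKO-D basal cells they were found in 0.483%, at a median of 41874 UMIs per cell against 6001.5 in endothelium.

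The targets differed most in breadth. Hes1, a transcriptional repressor that Notch and other signals can switch on, was found in every class. In Eed iKO-D it stood at 227 CPM (224 to 230) in basal cells, 137 CPM (132 to 142) in suprabasal cells, 127 CPM (116 to 140) in cornifying cells, 117 CPM (108 to 125) in pericytes and 214 CPM (204 to 225) in endothelium. In Ctrl-D it stood at 136 CPM (126 to 146) in basal cells, 177 CPM (161 to 193) in suprabasal cells, 142 CPM (137 to 147) in cornifying cells, 313 CPM (242 to 397) in pericytes and 149 CPM (98.7 to 215) in endothelium. The order of basal and suprabasal cells turned round between the libraries: suprabasal over basal, Hes1 stood at 0.605 (0.581 to 0.629) in Eed iKO-D and 1.30 (1.16 to 1.46) in Ctrl-D. The basal clusters described below differed in this. In Eed iKO-D, Hes1 stood at 244 CPM in cluster 11 but at 107 CPM (102 to 113) in cluster 18, below the suprabasal level. Ctrl-D had 129 and 151 CPM in these clusters, the second overlapping with its suprabasal level. The turn thus held for cluster 11 only. Pericytes, the highest class in Ctrl-D, were the lowest in Eed iKO-D, where they overlapped with cornifying cells.

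Hey1 and Heyl, repressors related to Hes1 that serve vessel development, were nearly absent from keratinocytes. Hey1 stood at 35.6 CPM (31.5 to 40.0) in Eed iKO-D endothelium and 37.2 CPM (14.9 to 76.5) in Ctrl-D endothelium, where all 7 UMIs came from 1 of 19 cells. Pericytes had 50 UMIs of Hey1 in Eed iKO-D (7.62 CPM) and 0 in Ctrl-D. Heyl, by contrast, was highest in pericytes, at 120 CPM (111 to 128) in Eed iKO-D and 145 CPM (98.3 to 205) in Ctrl-D. Endothelium had 16 UMIs of Heyl in Eed iKO-D (2.06 CPM) and 0 in Ctrl-D. In basal cells Hey1 had 11 and 0 UMIs and Heyl 23 and 0, against 2071 and 275 cells. The Eed iKO-D basal levels of Dll4 (0.0993 CPM) and Heyl (0.228 CPM) lay below the free RNA estimated there, 0.123 and 0.254 CPM. Over endothelium, the Eed iKO-D pericyte level was 58.1 (35.5 to 102) times higher for Heyl and 35.3 (28.8 to 43.7) times for Notch3. UMIs of Heyl were found in 57.5% of Eed iKO-D and 51.6% of Ctrl-D pericytes, and after thinning in 15.3% and 20.0%. In neutrophils, which should lack Heyl and had medians of 4658.5 and 1277 UMIs per cell, they were found in 1.07% and 0%.

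Between the libraries, Notch1 and Hes1 passed 1.5-fold in basal keratinocytes, both higher in Eed iKO-D. Notch1 stood at 130.0 CPM in Eed iKO-D and 70.2 CPM in Ctrl-D, a ratio of 1.85 (1.67 to 2.06), and Hes1 at 227 and 136 CPM, a ratio of 1.67 (1.55 to 1.81). Ratios were 1.28 (1.11 to 1.48) for Notch2, 1.35 (1.01 to 1.85) for Notch3, 1.45 (1.36 to 1.55) for Jag1, 1.30 (1.17 to 1.45) for Jag2 and 0.699 (0.579 to 0.851) for Dll1. Genes were counted where both libraries together gave 20 UMIs or more, which left 8, and 2 of these were higher and 0 lower. Heyl, at 23 UMIs against 0, counted as neither because its bound fell short of the threshold. Over all genes, 25.3% were at least 1.5 times higher in Eed iKO-D basal cells and 12.6% lower. The median log2 ratio was 0.48 over the 8 genes and 0.21 over all 17650 genes, which became 0.08 when libraries were scaled by the median of ratios. A share of 2 in 8 is near the background. Across 13 alternative settings, some of which redrew the basal class, the Notch1 ratio ranged from 0.950 to 3.54. Settings within a single basal cluster are not among these.

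The basal class held 2 clusters in which most ratios lay on opposite sides of 1. In cluster 11, led by genes such as Lama3 (a laminin chain), Hmga2 and Mmp10, with 1704 cells of Eed iKO-D and 138 of Ctrl-D, Notch1 stood at 135 CPM in Eed iKO-D and 36.5 CPM in Ctrl-D, a ratio of 3.69 (3.10 to 4.42). Hes1 stood there at 244 and 129 CPM, Jag1 at 271 and 157 CPM, Notch2 at 51.6 and 26.3 CPM, and Notch3 at 13.0 and 5.37 CPM. Dll1 was lower, at 15.4 CPM in Eed iKO-D and 26.6 CPM in Ctrl-D (ratio 0.579). In all, 5 of 8 genes were higher and 1 lower in cluster 11, beside 33.3% and 12.1% of all genes. With each cell weighted equally, Hes1 averaged 220 CPM in Eed iKO-D and 102 CPM in Ctrl-D there, and Notch2 62.4 and 42.7 CPM. Jag1 then averaged 290 and 267 CPM, and Notch3 turned, at 14.1 and 18.1 CPM.

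In cluster 18, led by genes such as Sostdc1, Tslp and Krt15, with 367 cells of Eed iKO-D and 137 of Ctrl-D, Notch1 stood at 98.6 and 145 CPM, a ratio of 0.682 (0.593 to 0.788). Notch3 (10.1 and 18.1 CPM, ratio 0.559) was at least 1.5 times lower there, while Jag1 (148 and 218 CPM, ratio 0.680) and Hes1 (107 and 151 CPM, ratio 0.711) fell short of that. Hence 0 of 7 genes were higher and 1 lower in cluster 18, beside 15.7% and 12.5% of all genes. The Ctrl-D cells of cluster 18 were shallow, with a median of 4637 UMIs, against 31780 in Eed iKO-D. In cluster 11, 130 of the 138 Ctrl-D cells had UMIs of Xist and none of a Y-linked gene, and 0 had the reverse. Over the whole basal class, cells with UMIs of Xist alone (1209 of Eed iKO-D and 220 of Ctrl-D) had Notch1 at 131 and 57.0 CPM and Hes1 at 261 and 123 CPM. Cells with UMIs of Y-linked genes alone (268 and 25) went the other way for Notch1, at 148 CPM (141 to 155) in Eed iKO-D and 198 CPM (155 to 250) in Ctrl-D. Their Hes1 intervals overlapped, at 137 CPM (131 to 144) and 168 CPM (129 to 216). The 25 Ctrl-D cells all lay in cluster 18, while 192 of the 268 Eed iKO-D cells lay in cluster 11. This comparison thus mostly set unlike clusters side by side. The part that depth, sex or single tumours had in these ratios was not tested.

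The basal ratio of Notch1 changed with how cells were weighted. When each cell counted equally, Notch1 averaged 123 CPM in Eed iKO-D and 129 CPM in Ctrl-D basal cells, against 130.0 and 70.2 CPM from summed UMIs. Under equal weights Jag1 averaged 266 and 321 CPM, Jag2 99.7 and 111 CPM, Notch2 61.7 and 73.9 CPM and Notch3 13.4 and 20.1 CPM, so that none of them was higher in Eed iKO-D. Hes1 kept its direction, at 199 and 110 CPM. Within each basal cluster Notch1 kept its direction too. Equal weights gave 128 CPM in Eed iKO-D and 70.8 CPM in Ctrl-D for cluster 11, and 97.0 and 188 CPM for cluster 18. The share of basal cells with a Notch3 UMI was 26.5% in Eed iKO-D and 11.6% in Ctrl-D as counted and 1.45% and 2.89% after thinning, which goes against the CPM, so no order was read from it.

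Suprabasal keratinocytes had 6 of 7 genes at least 1.5 times higher in Eed iKO-D and 0 lower. These were all 3 receptors and the ligands Jag1, Jag2 and Dll1. Notch1 stood at 87.1 CPM in Eed iKO-D and 17.8 CPM in Ctrl-D, a ratio of 4.90 (3.70 to 6.63) that ranged from 1.56 to 7.13 over 13 alternative settings, the lowest with each cell assigned by its own markers. Notch2 stood at 207 and 75.3 CPM, a ratio of 2.75 (2.40 to 3.18), and Jag1 at 165 and 35.2 CPM, a ratio of 4.70 (3.85 to 5.81). Notch3 had the smallest of the 6 ratios, 1.71 (1.40 to 2.11). Jag2 had a ratio of 3.87 (1.74 to 10.7) from 163 and 6 UMIs, and Dll1 one of 6.12 (1.04 to 247) from 43 and 1 UMIs, so both rest on few Ctrl-D molecules. With each cell assigned by its own markers both turned, to 0.922 and 0.788. Hes1 was the exception, at 137 CPM in Eed iKO-D and 177 CPM in Ctrl-D, a ratio of 0.776 (0.705 to 0.856).

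These counts stood in a class where most genes were higher in Eed iKO-D. Of 13304 genes with enough UMIs in suprabasal cells, 54.2% were at least 1.5 times higher and 9% lower, and the median log2 ratio was 0.72, against 1.84 over the 7 Notch genes. Relative to that median, the log2 ratio was 1.58 for Notch1, 1.52 for Jag1, 1.23 for Jag2, 0.74 for Notch2, 0.06 for Notch3 and −1.08 for Hes1. Scaling by the median of ratios moved the median of all genes to 0.15 and the shares, with 0.5 UMI added to each count, to 33.6% higher and 23.4% lower, against 55.1% and 9.30% by the class total. Under that scaling 5 of the 7 genes were higher, Notch3 falling short at 1.15, and Hes1 was lower, at 0.523. With each cell weighted equally, 3 of the 7 were higher, namely Notch1 (80.9 and 33.2 CPM, ratio 2.43), Jag1 (ratio 3.20) and Jag2 (ratio 3.15). Notch2 then averaged 277 CPM in Eed iKO-D and 231 CPM in Ctrl-D, and Notch3 70.9 and 77.3 CPM.

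UMIs of Jag1 were found in 83.4% of Eed iKO-D and 52.2% of Ctrl-D suprabasal cells, which had medians of 34229.5 and 30439.5 UMIs per cell. In T cells the shares were 36.8% and 6.37%. After thinning, the suprabasal shares were 22.6% and 6.90% and the T cell shares 12.6% and 2.75%. Each library's suprabasal share was thus above its T cell share, and the T cell share was itself higher in Eed iKO-D. What the T cell share stands for was not tested, so it is no measured background.

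**Figure D2:**
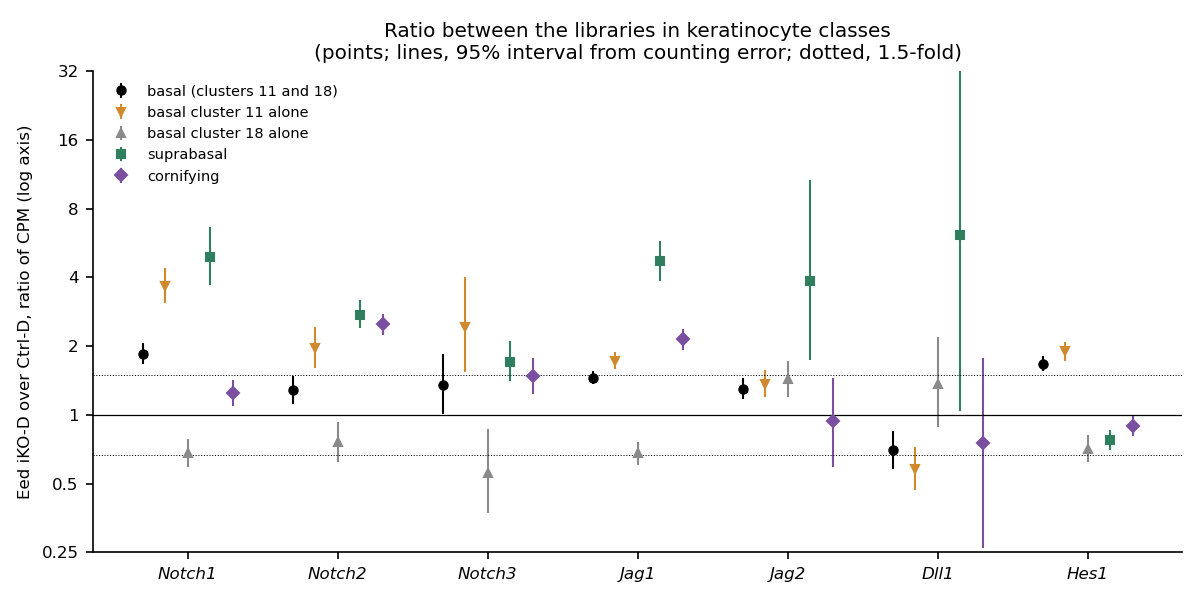
Ratio of CPM, Eed iKO-D over Ctrl-D (vertical log axis), for the 7 genes with enough UMIs in each keratinocyte class, with the 2 basal clusters also shown alone. Lines are 95% intervals from counting error and dotted lines mark 1.5-fold; the Dll1 interval in suprabasal cells runs past the top of the axis, to 247. Notch1, Notch2, Notch3, Jag1 and Hes1 lie above 1 in cluster 11 and below 1 in cluster 18, and in suprabasal cells all but Hes1 lie above 1.

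Cornifying keratinocytes had 2 of 7 genes at least 1.5 times higher in Eed iKO-D and 0 lower, beside 35.3% and 14.9% of all 12883 genes. Notch2 stood at 146 CPM (134 to 159) in Eed iKO-D and 58.4 CPM (55.0 to 61.9) in Ctrl-D, a ratio of 2.50 (2.25 to 2.78), and Jag1 at 142 and 66.3 CPM, a ratio of 2.14 (1.93 to 2.38). The ratio was 1.48 (1.23 to 1.77) for Notch3, 1.25 (1.10 to 1.42) for Notch1, 0.943 (0.591 to 1.45) for Jag2 and 0.895 (0.808 to 0.990) for Hes1. The median log2 ratio was 0.33 over the 7 genes and 0.33 over all genes. Scaling by the median of ratios moved the median of all genes to −0.12 and the shares to 16% higher and 28.0% lower, against 36.2% and 14.0% by the class total. Notch2 and Jag1 were still higher then, at 1.84 and 1.58, and Dll1 (0.552) and Hes1 (0.658) were lower.

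Keratinocytes were also placed, after the data were seen, by the share of Krt1 and Krt10, the keratins of spinous cells, among the UMIs of Krt1, Krt10, Krt5 and Krt14. This takes cells of the basal, suprabasal and cornifying classes and of keratinocyte clusters 0, 4 and 13, given at least 50 UMIs of these keratins. Follicle-like cells were left out. Cells numbered 2489, 147, 69 and 70 in Eed iKO-D and 2607, 480, 266 and 395 in Ctrl-D, over shares under 1%, 1 to 5%, 5 to 20% and over 20%. Under 1%, Eed iKO-D cells held 8685 UMIs of Notch2, while its basal class and clusters 0 and 13 held 5238, 118 and 755. Suprabasal or cornifying cells of Eed iKO-D thus also fell in that bin. Ctrl-D cells held 1941 UMIs there, against 209, 1423 and 633 in its basal class and clusters 0 and 4. A bin may thus set unlike stages side by side. Jag1 stood along these bins at 259, 195, 140 and 137 CPM in Eed iKO-D and at 84.6, 71.1, 66.7 and 55.8 CPM in Ctrl-D. It was thus higher in Eed iKO-D in each bin, by 3.06, 2.74, 2.10 and 2.45 times. Clusters 11 and 13 held 1704 and 344 cells of Eed iKO-D, with Jag1 at 271 and 440 CPM. Clusters 0 and 4 held 2364 and 637 cells of Ctrl-D, at 80.1 and 78.3 CPM. Within clusters 0, 2, 9, 11 and 18 the Jag1 ratio was 1.16, 2.14, 4.70, 1.73 and 0.680. The part of this mix of clusters in the bin ratios was not tested. Notch2 stood at 68.9, 153, 137 and 174 CPM in Eed iKO-D and at 34.8, 42.2, 49.9 and 66.9 CPM in Ctrl-D, with ratios of 1.98, 3.62, 2.74 and 2.60. For both genes the Eed iKO-D level was thus higher in all 4 bins.

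Notch1 was lower in each next bin of both libraries, at 129, 104, 71.1 and 54.8 CPM in Eed iKO-D and 80.8, 65.5, 57.5 and 44.1 CPM in Ctrl-D. Its ratio passed 1.5 in the first 2 bins, at 1.59 and 1.60, and was 1.24 and 1.24 (1.02 to 1.51) in the last 2. Jag2 stood at 77.7, 42.8, 11 and 8.04 CPM in Eed iKO-D and 60.6, 27.1, 6.90 and 4.37 CPM in Ctrl-D. Notch3 stood at 19.9, 45.9, 53.1 and 43.1 CPM in Eed iKO-D and 9.25, 25.9, 27.5 and 36.7 CPM in Ctrl-D, and its ratio in the last bin was 1.17 (0.942 to 1.45). Hes1 had ratios of 1.06, 0.649, 0.865 and 0.953, so no bin was 1.5 times higher in Eed iKO-D and the second was 1.5 times lower.

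**Figure D3:**
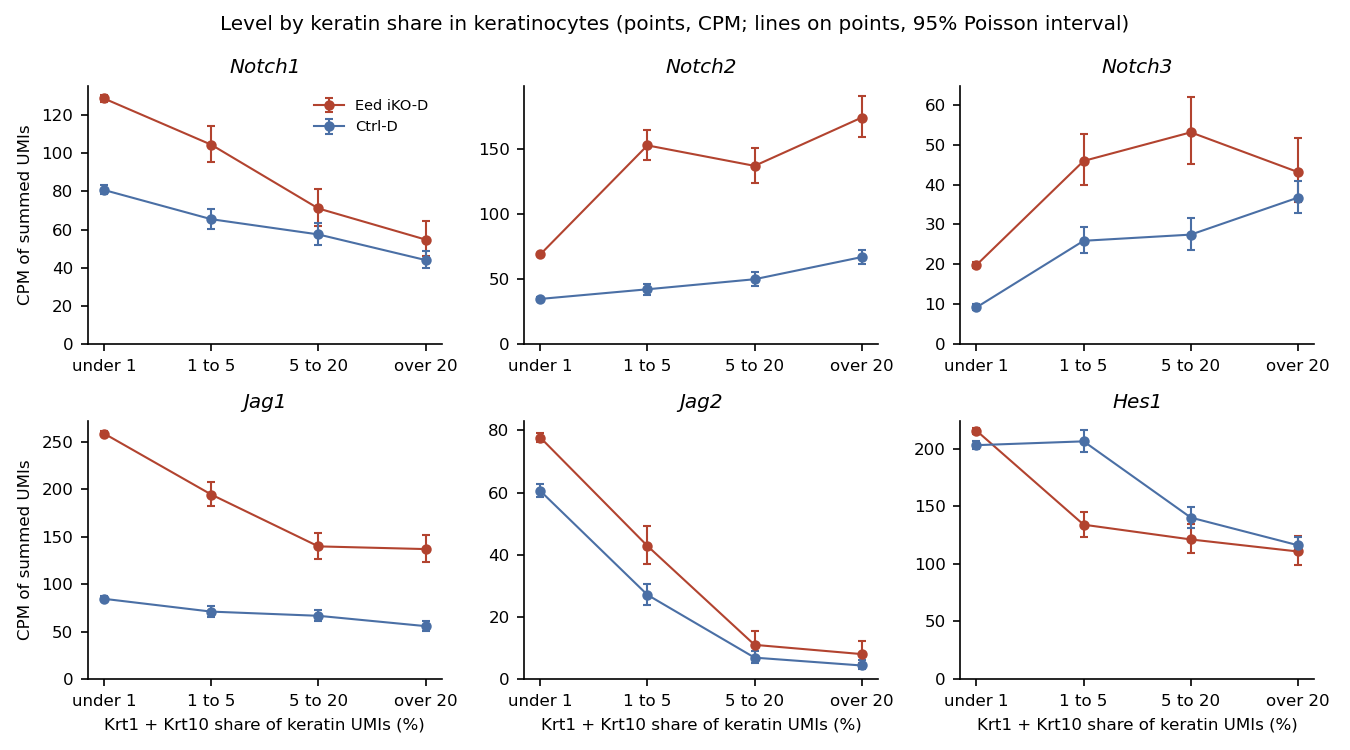
Level in CPM (vertical axes, linear from 0) of 6 genes in keratinocytes grouped by the share of Krt1 and Krt10 among the UMIs of 4 keratins (horizontal axes, percent), with 1 line per library and 95% Poisson intervals. Jag1 and Notch2 run higher in Eed iKO-D across all 4 bins, while Jag2 is low in the last bin of both libraries, at 8.04 CPM in Eed iKO-D and 4.37 CPM in Ctrl-D.

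A further pair of keratinocyte clusters held 50 cells or more of both libraries. In cluster 0, with 92 cells of Eed iKO-D and 2364 of Ctrl-D, Notch2 stood at 47.2 and 30.5 CPM (ratio 1.55) and Notch3 at 17.6 and 9.03 CPM (ratio 1.95). That made 2 of 7 genes higher and 0 lower, beside 30.2% and 14.2% of all genes. In the follicle-like cluster 1, with 72 and 1128 cells, 3 of 8 genes were higher and 0 lower, beside 28.2% and 20.1% of all genes. All 3 were ligands, Jag1 (281 and 138 CPM, ratio 2.04), Jag2 (104 and 58.8 CPM, ratio 1.77) and Dll1 (16.6 and 8.32 CPM, ratio 1.99). Notch1 (ratio 0.993) was even there, and Hes1 had a ratio of 1.21 (1.07 to 1.37). Notch2 thus passed 1.5-fold in clusters 0, 2 (the cornifying class), 9 (the suprabasal class) and 11, and stood at 1.28 in cluster 1 and 0.759 in cluster 18.

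In pericytes the counting intervals of the Notch3 and Heyl ratios held 1. The ratio was 0.851 (0.704 to 1.04) for Notch3 and 0.827 (0.578 to 1.23) for Heyl, with 111 and 31 UMIs in the 31 Ctrl-D cells. Jag1 had a ratio of 1.00 (0.731 to 1.42), at 183 CPM in Eed iKO-D and 182 CPM in Ctrl-D. Hes1 stood apart, at 117 CPM in Eed iKO-D and 313 CPM in Ctrl-D, a ratio of 0.373 (0.290 to 0.486) from 765 and 67 UMIs. Nrarp, which encodes a feedback inhibitor of Notch, was also lower, at 91.0 and 159 CPM (ratio 0.573). The third Hey gene, Hey2, stood at 31.7 CPM in Eed iKO-D and 46.7 CPM in Ctrl-D pericytes, the last from 10 UMIs. The 14 pericyte markers summed to 13210 CPM in Eed iKO-D and 23926 CPM in Ctrl-D, and the 10 epithelial markers to 3975 CPM, with none at 0, and 373 CPM, with Cdh1 at 0. The part of these in the Hes1 ratio was not tested.

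Endothelium had 19 cells in Ctrl-D, so the intervals there were wide. Dll4 had a ratio of 1.35 (0.867 to 2.21), Notch1 one of 1.19 (0.782 to 1.91), Jag1 one of 1.03 (0.668 to 1.67), Hes1 one of 1.44 (0.993 to 2.17) and Hey1 one of 0.957 (0.458 to 2.40). Dll1 stood at 27.7 CPM in Eed iKO-D and 53.1 CPM in Ctrl-D, a ratio of 0.522 (0.278 to 1.10). Notch4, the receptor largely confined to endothelium, stood at 65.2 and 101 CPM. Apart from Notch2 (284 UMIs in Eed iKO-D and 1 in Ctrl-D, ratio 6.89, 1.23 to 273), each ratio of the members measured in both libraries had an interval that held 1.

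The 546 endothelial cells of Eed iKO-D were further split by their highest marker list, a grouping added after the data were seen, into 113 arterial, 169 tip, 148 venous and 116 lymphatic cells. Of these, 19, 31, 20 and 18 lay near the boundary of their group, and the groups' median depths were 6861, 11519, 7082.5 and 3789.5 UMIs. Dll4 stood at 187 CPM (165 to 211) in arterial and 228 CPM (212 to 245) in tip cells, against 24.5 CPM (18.3 to 32.1) in venous and 63.5 CPM (49.2 to 80.7) in lymphatic cells. Hey1 was highest in arterial cells, at 86.2 CPM (71.3 to 103), with 45.1 CPM in tip, 1.89 CPM in venous and 8.54 CPM in lymphatic cells. Notch4 had the same outline, at 99.3, 88.0, 26.9 and 28.5 CPM. Notch1 varied less, at 191, 138, 99.0 and 155 CPM in the same order, and Hes1 was highest in tip cells, at 290.0 CPM. Dll1 differed from Dll4 in its order, with 14.6 CPM in arterial, 34.2 CPM in tip, 33.5 CPM in venous and 13.3 CPM in lymphatic cells. Notch2 was highest in lymphatic cells, at 115 CPM (95.2 to 137), against 16.2 to 44.5 CPM in the others. The marker lists used for the split held none of these genes. In Ctrl-D the 19 cells were too few to split.

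**Figure D4:**
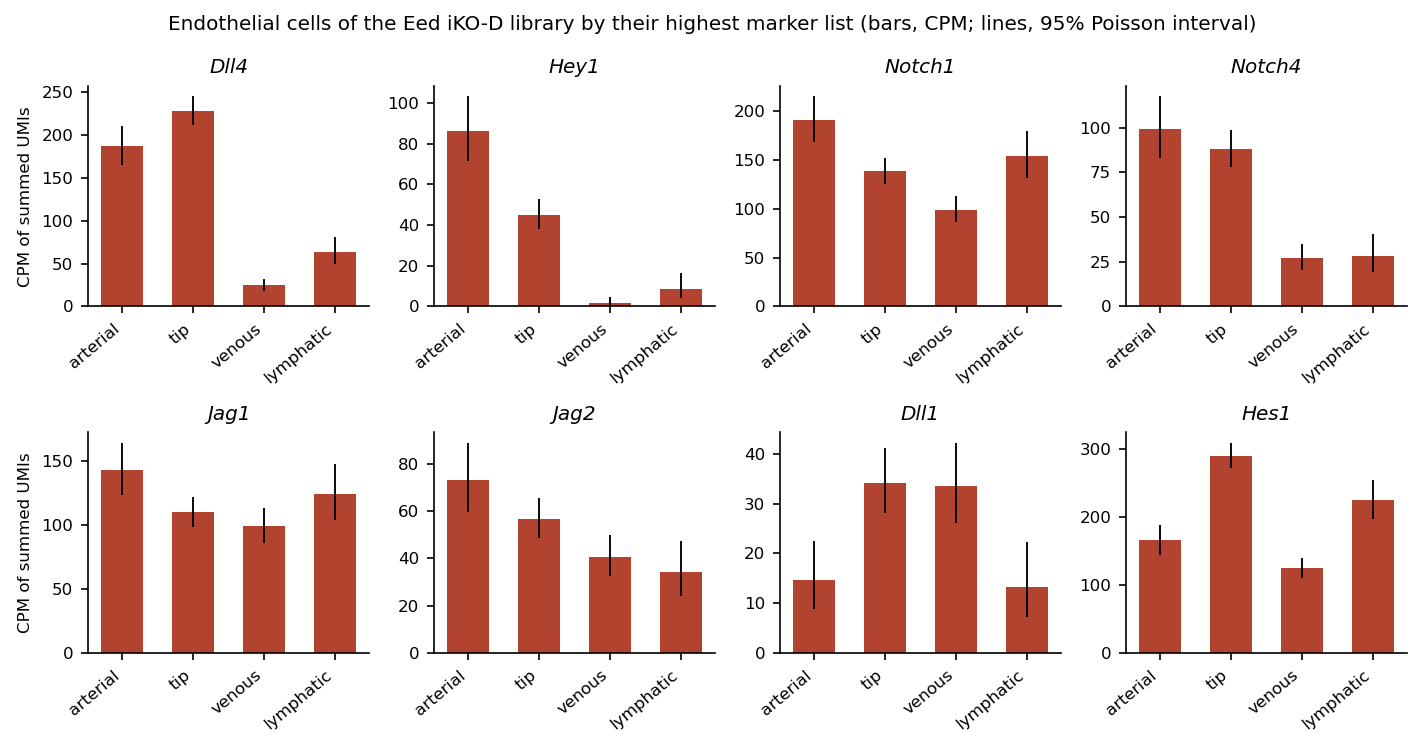
Level in CPM (vertical axes, linear from 0) of 8 Notch pathway genes in Eed iKO-D endothelial cells grouped by their highest marker list, with 95% Poisson intervals. Dll4, Hey1 and Notch4 are higher in arterial and tip cells than in venous and lymphatic cells, with Dll4 at 187, 228, 24.5 and 63.5 CPM.

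The rest of the pathway was followed in 65 other genes, listed by role. In basal cells 18 of 56 measured genes were at least 1.5 times higher in Eed iKO-D and 6 lower, and their median log2 ratio was 0.42 beside 0.21 over all genes. In suprabasal cells 36 of 49 were higher and 4 lower, and their median was 1.19 beside 0.72 over all genes. These shares, and those of each list below, are to be read against all genes in the same cells. Of all genes, 25.3% in basal and 54.2% in suprabasal cells were higher, and 12.6% and 9% were lower.

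Of 14 genes of the transcription complex, which acts in the nucleus, 3 were higher in basal cells, beside 25.3% of all genes, and 11 in suprabasal cells, beside 54.2%, and 0 were lower. Whether the list differs from other genes was not tested. Examples from suprabasal cells were Rbpj, the DNA-binding partner of the receptor (37.2 CPM in Eed iKO-D and 13.1 CPM in Ctrl-D, ratio 2.83), the coactivator genes Maml3 (527 and 120 CPM, ratio 4.39) and Maml2 (80.6 and 22.0 CPM, ratio 3.66) and the corepressor gene Tle1 (34.2 and 9.95 CPM, ratio 3.44). Among 10 genes of receptor cleavage, 5 were higher and 2 lower in each of the 2 classes. All genes gave 25.3% higher and 12.6% lower in basal cells, and 54.2% and 9% in suprabasal cells. Adam10, the protease that makes the first cut, stood at 240.4 CPM in Eed iKO-D and 95.6 CPM in Ctrl-D suprabasal cells (ratio 2.52). Aph1b (ratio 3.73) and Aph1c (ratio 0.243), near-identical gamma-secretase genes, differed in opposite directions in basal cells, and the division of UMIs between them is uncertain.

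Of the genes of ligand endocytosis and receptor turnover, 4 of 14 were higher and 2 lower in basal cells, and 9 of 12 higher and 0 lower in suprabasal cells. The largest ratios were of sparse genes: Dtx3, of the Deltex family of Notch regulators, had 114 UMIs in Eed iKO-D and 1 in Ctrl-D suprabasal cells (ratio 16.2, 2.86 to 647). Mib2, a ubiquitin ligase that acts on Notch ligands, had 36 UMIs against 0 there and was counted as higher only against the floor of 3 UMIs. Neurl3 had 85 UMIs against 0 in basal cells and counted as neither. The glycosyltransferases, which tune ligand choice, had 0 of 5 genes past 1.5-fold in basal cells and 3 of 3 higher in suprabasal cells, Poglut1 (ratio 2.50) and Pofut1 (ratio 1.69) among them. Mfng had 31 UMIs in Eed iKO-D and 0 in Ctrl-D basal cells. Of the other receptor and ligand genes, 2 were measured in basal cells, where Dlk2 had a ratio of 0.672 and Dll3 20 UMIs in Eed iKO-D against 2 in Ctrl-D (ratio 0.511, 0.124 to 4.51). In suprabasal cells 0 were measured.

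The list of other Hes and Hey genes also held the related repressor genes Bhlhe40 and Bhlhe41. Of this list, 3 of 3 measured genes were higher in both classes, beside 25.3% of all genes in basal and 54.2% in suprabasal cells. In suprabasal cells these were Bhlhe41, Bhlhe40 and Hes6, so Hes6 was the only Hes or Hey gene by name. Bhlhe41, a circadian repressor, stood at 14.3 CPM in Eed iKO-D and 1.42 CPM in Ctrl-D suprabasal cells (ratio 10.1, from 4 UMIs in Ctrl-D), and its relative Bhlhe40, which is also induced by low oxygen, at 310.0 and 66.4 CPM (ratio 4.67). Hes6, an antagonist of Hes1, had a suprabasal ratio of 2.18 (1.02 to 5.54) from 107 and 7 UMIs. Of genes known as Notch outputs in other tissues, 3 of 9 were higher and 1 lower in basal cells, and 5 of 8 higher and 2 lower in suprabasal cells. Gata3, a differentiation factor of epidermis and T cells and a leading gene of cluster 18, stood at 29.5 CPM in Eed iKO-D and 85.8 CPM in Ctrl-D basal cells (ratio 0.344). Ptcra, a pre-T cell receptor gene, had a basal ratio of 4.61 from 451 and 5 UMIs, and Cd44, a hyaluronan receptor, stood at 1107 and 310.5 CPM in suprabasal cells (ratio 3.56). Nrarp stood at 25.9 and 32.9 CPM in basal cells and 77.0 and 105 CPM in suprabasal cells, and so passed 1.5-fold in neither.

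**Figure D5:**
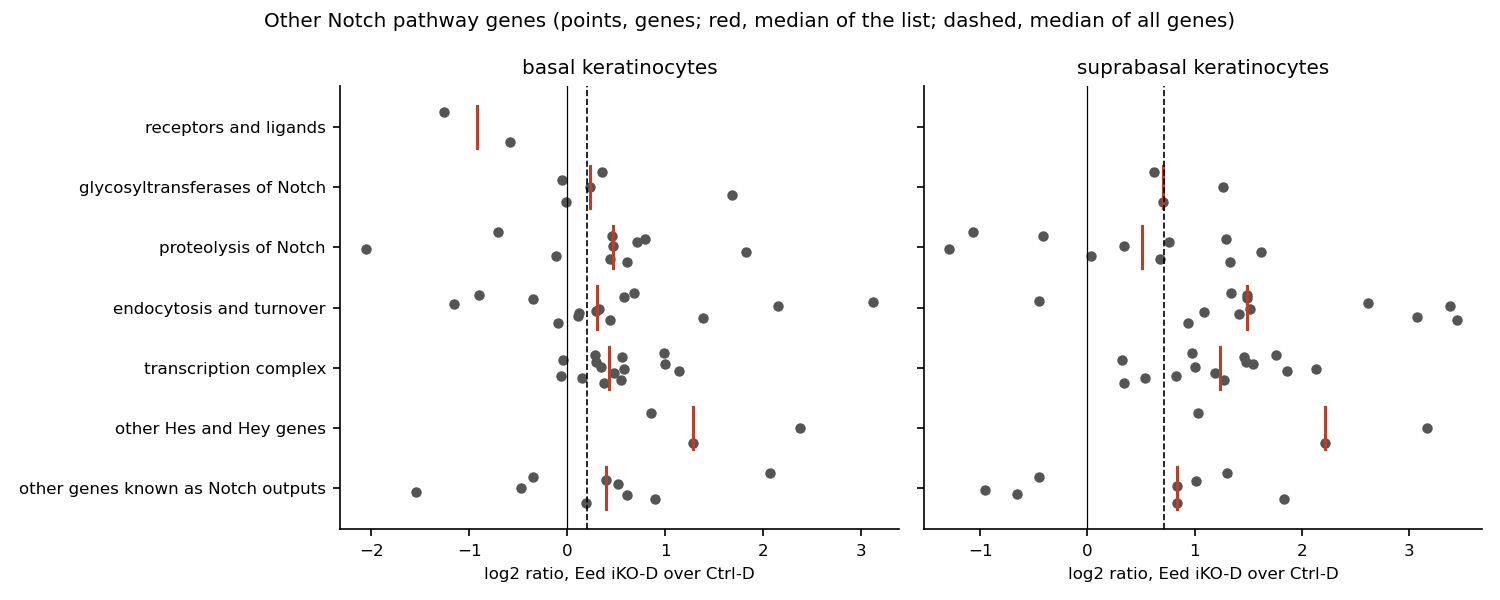
Log2 ratio of Eed iKO-D over Ctrl-D, with 0.5 UMI added to each count, for other Notch pathway genes by role in basal and suprabasal keratinocytes, 1 point per gene. Points of most roles lie above 0, as does the median of all genes, which is 0.21 in basal and 0.72 in suprabasal cells.

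Genes with the most similar pattern were sought over 39 points, each a cluster of a library with at least 30 cells, from 27 clusters. Points of 1 library share depth and free RNA, so Pearson's r of log2(CPM + 5) is given as a description. Dll4 was most like Cldn5 (r = 0.991), Mmrn1 and Flt4, which are endothelial genes. The named endothelium entered as its Eed iKO-D point alone, since Ctrl-D had 19 endothelial cells. The values for Dll4 thus lean on that point and do not separate kinds of endothelium. Mmrn1 and Flt4 were on the lymphatic marker list, while Dll4 stood lower in lymphatic than in arterial and tip cells. Heyl was most like Jph2 (r = 0.972), the smooth muscle gene Cnn1 and Adra2a. Hey1 was most like Notch4 (r = 0.847), Sox18 and Clec14a, and Notch3 like Il34 (r = 0.820), Kcnmb1 and H2-M9. Jag2 was most like the desmosomal gene Dsg2 (r = 0.894), Bnc1 and Wnt10a, and Jag1 like Smtn (r = 0.876), Ephb4 and Fat1. Dll1 was most like Card10 (r = 0.827), Ctnnal1 and Schip1. Lower values were found for Hes1 with Amotl1 (r = 0.803), Notch1 with Shoc2 (r = 0.756) and Notch2 with Ell (r = 0.755).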

How the data were processed

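UMI counts per gene and barcode were deposited by the authors as whole numbers for cell-called barcodes of 2 libraries. Cell Ranger, which aligns reads and counts UMIs, is given in 3 versions. The extract protocol among the labels gives 2.1.0, headers inside the deposited files give 7.1.0, and the submitters' processing notes give 8.0 and the build mm10. Of the gene IDs, 99.6% were found in an mm10 annotation. The labels name a version 2 kit for 3′ ends, so levels are not per transcript length.

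Cells with at least 500 genes and at most 15% mitochondrial UMIs were kept. Scrublet removed 145 cells of Ctrl-D. It called 0 of 21484 cells of Eed iKO-D, which counts as a failure, and doublets were left in that library. Scanpy 1.11.5 clustered both libraries together (2000 variable genes without Notch pathway genes, 30 components, 15 exact neighbours, Leiden resolution 1, no batch correction). Clusters were named by their mean marker score (at least 0.5, a lead of at least 0.3 and 3 raised markers), a rule set after the data were seen. Free RNA was estimated from markers of other lineages.

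The UMIs of a class were added up within each library and scaled to CPM, with exact Poisson intervals for CPM, Clopper-Pearson intervals for shares and conditional binomial intervals for ratios, all at 95%. A gene was counted as higher or lower at 1.5-fold, given 20 UMIs in both libraries together and 50 cells in each. A count of 0 was set to a floor of 3 UMIs for calls and called only in the direction of that bound. Shares were also taken after thinning cells to 1500 UMIs, leaving out shallower cells. The 10 genes and the lists were chosen with earlier results of these data known. All 10 were named, with up to 3 genes of each other list by largest log2 ratio in basal or suprabasal cells, and the 3 genes of highest correlation for each. Hey2, Notch4, Nrarp and Rbpj were named beside these after their values were seen. The ratio calculation was tested on simulated data. Alternatives covered the cell filter, doublets, clustering, scaling (edgeR 4.0.16 for TMM factors), weighting of cells, free RNA, thresholds and sex-marked cells.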

Additional observations from a re-analysis of the deposited data

Results flagged for a closer look

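For 2 genes the ratio of Eed iKO-D over Ctrl-D lay above 1.5 in one group of keratinocytes and below 1/1.5 in another. Neither difference was tested, since 1 library stands for each group. Notch3 had a ratio of 2.42 in basal cluster 11 and 0.559 in basal cluster 18. The cluster 11 ratio came from 1143 UMIs in Eed iKO-D and 19 in Ctrl-D. With each cell weighted equally, Notch3 averaged 14.1 and 18.1 CPM in cluster 11 and 10.2 and 22.2 CPM in cluster 18. After thinning, 1.36% and 2.38% of cluster 11 cells had a Notch3 UMI. The opposite directions thus held for summed UMIs only. Dll1 had a ratio of 6.12 in suprabasal cells, from 43 UMIs in Eed iKO-D and 1 in Ctrl-D, and 0.579 in basal cluster 11.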

How the results depend on the processing

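The count of 2 genes higher in Eed iKO-D basal cells was 5 with the 8% of cells of highest Scrublet score removed and within cluster 11 alone, and 4 at resolution 2, with each cell assigned by its own markers and in cells with Xist alone. It was 1 at resolution 0.5 and with cells weighted equally, and 0 within cluster 18 alone and at a 2-fold threshold. The count of 0 lower was 2 with equal weights, and 1 under the stricter cell filter, the Scrublet removal, resolution 0.5, median-of-ratios or TMM scaling and within cluster 11 or cluster 18 alone. In suprabasal cells the 6 higher became 3 with equal weights and 4 under the stricter filter and at resolution 2. They became 5 with each cell by its own markers, each library clustered alone, median-of-ratios or TMM scaling or a 2-fold threshold. With at least 100 UMIs they were also 5, since Dll1, with 43 and 1 UMIs, was no longer counted. The 0 lower became 1 under median-of-ratios or TMM scaling, with equal weights and in cells with Xist alone. Median-of-ratios scaling also moved the shares of all suprabasal genes, with 0.5 UMI added, to 33.6% higher and 23.4% lower. In cornifying cells the 2 higher became 4 after the Scrublet removal and with each cell by its own markers. There the 0 lower became 2 with each cell by its own markers and under median-of-ratios or TMM scaling, and 1 with no filter on low counts. The cornifying alternatives and those on Xist were chosen after seeing the data. The stricter filter, no doublet removal and resolution 2 left 36, 36 and 35 Eed iKO-D cells in the cornifying class, so it was not counted there. With equal weights the basal direction turned for Notch1 (0.950), Notch2 (0.836), Notch3 (0.667), Jag1 (0.827) and Jag2 (0.90), and the suprabasal one for Notch3 (0.917). Within cluster 18 it turned for Notch1 (0.682), Hes1 (0.711), Notch2 (0.759), Notch3 (0.559), Jag1 (0.680) and Dll1 (1.37, against 0.699 in the class). At resolution 0.5 basal Hes1 (0.948) and Jag2 (0.992) turned. In suprabasal cells Jag2 (0.922) and Dll1 (0.788) turned with each cell by its own markers, Dll1 (0.922) at resolution 2, and Hes1 in 4 of 13 alternatives, to 1.11 at most. In cornifying cells Notch1 turned in 3 of 9 alternatives (lowest 0.913), Jag2 in 5 (highest 2.62) and Dll1 and Hes1 in 1 each (1.81 and 1.45). The cause was not tested. Over 13 alternatives in suprabasal cells Jag1 ranged from 2.40 to 6.39 and Notch2 from 1.20 to 3.90, and Notch3 passed 1.5 in 10. Dll1 passed it in 6 of 11. Over 9 in cornifying cells Jag1 ranged from 1.56 to 6.09. No paired analysis was possible because each group had 1 library. Depth limited most genes in the 31 pericytes and 19 endothelial cells of Ctrl-D. The 25 basal cells of Ctrl-D with Y-linked UMIs alone were too few for counts.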

Other observations

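A pair of keratinocyte clusters found almost only in 1 library carried the highest Jag1 and Hes1 levels among keratinocyte clusters with at least 30 cells of a library, and no ratio can be formed for them. Cluster 13, with 344 cells of Eed iKO-D and 1 of Ctrl-D and led by genes such as Ltf, Arg1 and Wfdc18, had Jag1 at 440.2 CPM (428 to 452), against 256 CPM in Eed iKO-D basal cells. UMIs of Jag1 were found in 95.6% of its cells, and in 42.4% after thinning to 1500 UMIs, against 12.6% of Eed iKO-D T cells. Cluster 4, with 637 cells of Ctrl-D and 0 of Eed iKO-D and led by Cck, Crct1 and Ppp1r14a, had Hes1 at 616 CPM (601 to 631), against 136 CPM in Ctrl-D basal cells. UMIs of Hes1 were found in 81.2% of its cells, and in 45.6% after thinning, against 1.83% of Ctrl-D T cells. The median depth was 14632 UMIs in the cluster 4 cells and 3002 in the T cells. Of the 637 cells, 302 had UMIs of Y-linked genes alone and 22 of Xist alone. Whether either cluster stands for a cell state or for single tumours or animals was not tested.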
